A study of Isoetes sinensis with 3 samples.

Results

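In the annotated genome of the quillwort *Isoetes sinensis*, a tetraploid aquatic lycophyte, 129 of 57303 genes had at least 3 internal coding (CDS) segments of exactly 72 bp, the length of 24 codons. An internal segment is a CDS exon that is neither the first nor the last of its gene, and the genes were chosen on these lengths alone. They are called repeat genes here. Of the 129, 114 lay on the 22 pseudochromosomes and 15 on unplaced scaffolds. RNA was sequenced from root, shoot and a tissue that the labels name sporophyte and the methods name sporangia, with 1 library per tissue, and the labels name no treatment of the harvested plants. The annotation combines gene prediction, protein alignments and transcripts of the whole plant, with 1 mRNA per gene. It holds positions and no level per tissue, so expression was not analysed here and no tissues were compared. Each value below describes 1 assembly without replicates. Gene identifiers are written without their shared prefix evm.TU., and positions are in bp on the study's own assembly.

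Many proteins are built from short units repeated in a row. In leucine-rich repeat proteins, each unit folds into a turn of a curved coil whose inner face can bind another molecule, and plants use such coils in many receptors at the cell surface. In some plant and animal genes of this kind, each unit is encoded by its own exon, and the introns interrupt the codon at the same base each time. The phase of an intron names this place, with phase 0 between codons, phase 1 after the first base of a codon and phase 2 after the second. The annotation names no protein and no domain, so which protein any repeat gene encodes was not analysed here.

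The repeat genes held 773 internal segments of 72 bp, which was 31.2% of the 2475 in the whole annotation. The number per gene had a median of 5 and ran from 3 in 47 genes to 19 in 4 genes, with no gene between 11 and 19. Just outside the limit, 113 genes had exactly 2 such segments and 1476 genes had 1. The segments of the 113 genes were neighbours in 25 of them (22.1%), whereas 37 of the 47 genes with exactly 3 had at least a pair of neighbours (78.7%). Median CDS length on the sides of the limit was 1965 bp with exactly 2 and 1923 bp with exactly 3. These counts describe the choice and were not tested.

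The length of 72 bp stood apart from every other length held 3 or more times by a gene. Lengths of 66, 69 and 75 bp were each held 3 or more times by 16 genes, and none of the 67 other lengths reached a higher count. With 2475 segments it was also the most common internal length, ahead of 75 bp with 1811 segments. Of the 2475, 773 lay in the repeat genes themselves, and without these 72 bp ranked below 75 bp.

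**Figure D1:**
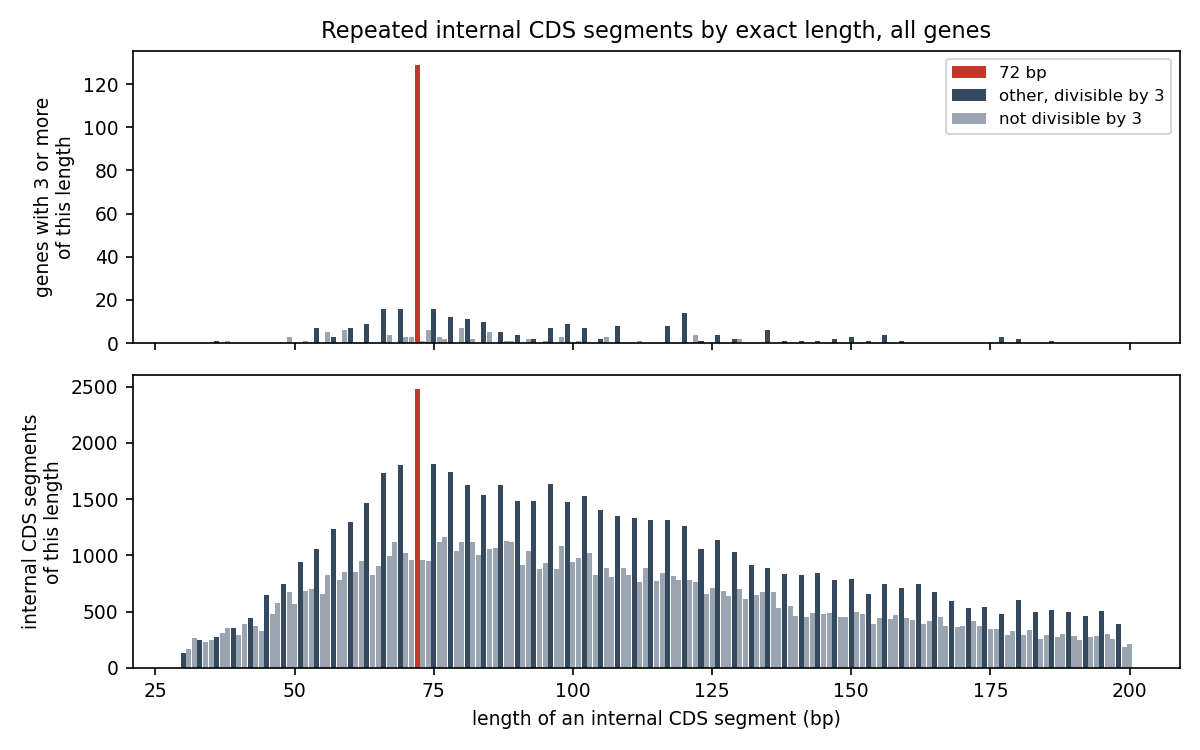
Upper plot, number of genes with 3 or more internal CDS segments of 1 exact length; lower plot, number of internal CDS segments of that length over all genes; the x axis is the length in bp and the bar of 72 bp is red. The red bar stands at 129 genes in the upper plot against at most 16 for any other length, and at 2475 segments in the lower plot against 1811 for 75 bp. Of the 2475 segments, 773 belong to the repeat genes.

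Most of the 72 bp segments followed one another without interruption. Of the 773, 669 (86.5%) lay in runs of 2 or more and 573 (74.1%) in runs of 3 or more. A run of 3 or more was present in 87 of the 129 genes, 32 had no more than a pair of neighbours, and in 10 genes no 72 bp segment touched another. The longest run per gene had a median of 3, and 12 was the highest. Single runs holding all of a gene's 72 bp segments were found in 26 genes, so in the others a segment of another length stood in between.

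Many interposed segments had a length close to the unit or double it. Between the first and the last 72 bp segment of a gene, 280 segments had another length, and 237 of these were divisible by 3. Lengths of 69 bp (57 segments), 75 bp (47), 78 bp (21) and 66 bp (7) made up 132 of them, which is 1 or 2 codons more or less than the unit. The double length of 144 bp accounted for 23 segments. In 122 genes the phase stayed the same from the first to the last 72 bp segment. These held 195 interposed segments, of which 122 were 1 or 2 codons from the unit and 23 were double. Segments of 66, 69, 75 and 78 bp were also common over all genes (1731, 1801, 1811 and 1743 segments). Whether they were enriched between the repeats was not tested. Over whole genes, 41 segments of 144 bp were found in 37 repeat genes, 34 of them beside a 72 bp segment, and 2 genes held a segment of 216 bp. When double and triple lengths were counted as part of a run, 104 genes had a run of 3 or more.

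The phase of the introns, which the choice had not used, set the repeat genes apart. A segment divisible by 3 has introns of the same phase on both sides. In the repeat genes, summed lengths gave phase 2 for 717 of the 773 segments (92.8%), phase 0 for 36 and phase 1 for 20. Among 61068 internal segments divisible by 3 but of other lengths, in 19666 other genes with at least 5 CDS segments, 78.1% lay between phase 0 introns and 10.99% between phase 2 introns. The mean share of phase 2 per pair of chromosomes was 84.5% in the repeat genes and 10.9% in the other segments, a difference of 73.6 percentage points (SD 22.4 over the 11 pairs). It was higher in 11 of 11 pairs (two-sided exact permutation of the signs over the pairs, p = 0.000977, the smallest this test can give, adjusted p = 0.00342 over 7 tests). The smallest difference was 12.6 percentage points, on chromosomes 13 and 14, which held 1 and 2 repeat genes. Phase 2 was found there only in 4 segments of Chr14.1705, so the direction in this pair rested on 1 gene. The test treats each pair of chromosomes with neighbouring numbers as 1 observation, since gene copies are frequent on the other chromosome of the pair. Related genes on different pairs were not separated by it.

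The share of phase 2 differed with the number of 72 bp segments in a gene. Genes with exactly 1 had 12.6% of them in phase 2, and genes with exactly 2 had 14.2%, both near the level of other lengths. With exactly 3 the share was 74.5% (47 genes). It was 93.6% with 4 to 6 (40 genes) and 98.4% with 7 or more (42 genes). In this last class, the only segments outside phase 2 were the 7 of Chr7.3710. Neighbouring 72 bp segments share their phase by arithmetic and some genes are copies, so the segments are not independent. All 30 segments of the 10 genes without neighbouring 72 bp segments lay in phase 0, while genes with a run of 2 or more had 96.5% in phase 2. The repeat genes with scattered segments therefore differed in phase from those with runs.

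**Figure D2:**
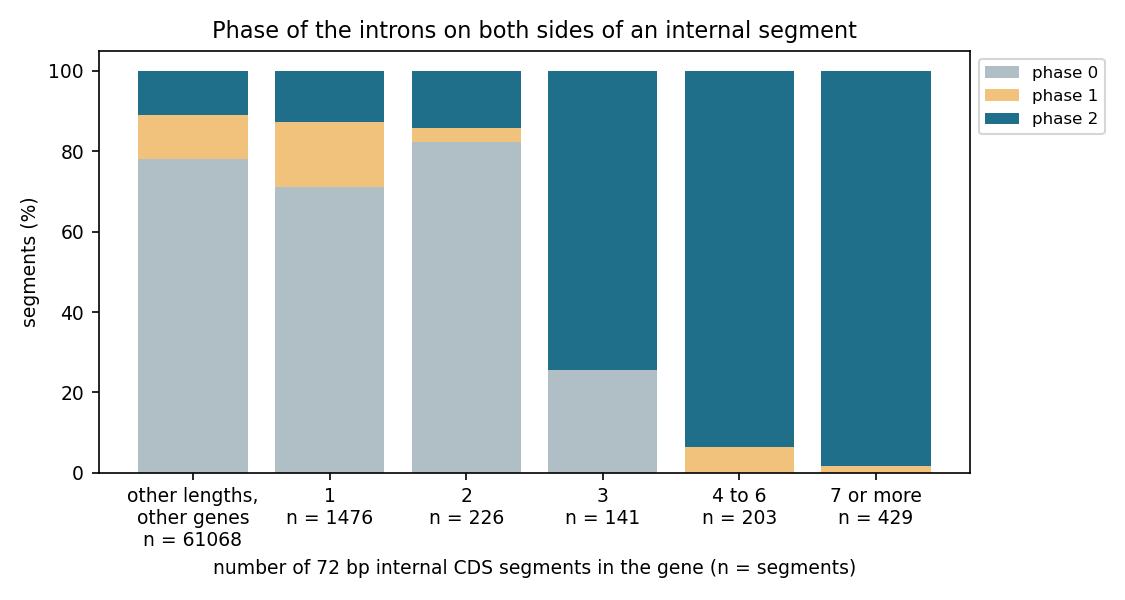
Share of internal segments (%, y axis) between introns of phase 0, 1 and 2, for segments of other lengths divisible by 3 in other genes and for 72 bp segments by their number in the gene; n is the number of segments. Phase 2 takes 12.6% and 14.2% of the segments in genes with 1 or 2, and 74.5%, 93.6% and 98.4% in genes with 3, 4 to 6 and 7 or more. Neighbouring 72 bp segments share their phase, so n does not count independent values.

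By gene, 113 of the 129 had all their 72 bp segments in phase 2, and all 113 had a run of 2 or more. In 94 of these the first intron between CDS segments was in phase 1. The segment just before the repeats turned phase 1 into phase 2 in 92 of the 103 that had at least 2 segments ahead of the repeats, and its most frequent length was 133 bp, in 23 genes. The phase was in 122 of 129 genes the same throughout the stretch from the first to the last 72 bp segment. Only phase 2 was found at the 72 bp segments of the 26 repeat genes on chromosomes 21 and 22 and the 15 on unplaced scaffolds. The same held for 72 of the 88 on the other chromosomes.

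Phase 0 in every 72 bp segment was found in 12 genes, of which 2 had neighbouring segments, the copies Chr1.135 and Chr2.91. These models tended to be long, as in Chr5.488 with 65 CDS segments and Chr2.2831 with 51. By summed lengths, phase 1 occurred in 3 genes. The copies Chr13.80 and Chr14.78 each had 6 segments in phase 1, 5 of them in a row, in a CDS of 1722 bp. The other, Chr7.3710, had 7 segments and a CDS of 1712 bp, the only length among the repeat genes that was not a multiple of 3. Its phase from summed lengths is therefore uncertain. Its segments of 72, 72, 69, 72, 72, 69, 75 and 75 bp recurred in this order in Chr8.3456, where they lay in phase 2. The 5 segments of Chr14.1705 were split, with 1 in phase 1 and 4 in phase 2.

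Repeat genes had long coding sequences with many segments. The CDS had a median of 2181 bp (quartiles 1488 and 2862 bp) in a median of 17 segments, against 1251 bp and 8 segments in other genes with at least 5. Since the choice required 3 internal segments of the same length, part of this difference was set by it and no test was made. The stretch from the first to the last 72 bp segment was measured in the 116 genes with neighbouring segments and 1 phase throughout. It covered a median of 538.5 bp, from 216 to 1437 bp, and 26.6% of the CDS. The coding sequence before it was short, with a median of 258.5 bp, and that after it was longer, with a median of 1277.5 bp. The stretch began at the third CDS segment in 75 of the 116 genes. In 22 genes its last 72 bp segment was also the last internal segment of the model.

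The highest number, 19, was reached by Chr1.2651 (chromosome 1, 50769243 to 50775629), Chr1.3471 (chromosome 1, 65727013 to 65735035), Chr2.2386 (chromosome 2, 46265978 to 46273502) and Chr2.3154 (chromosome 2, 59613545 to 59621496). All of them had 27 CDS segments and the same order, with 7 segments of 72 bp, a single one of 69 bp and then 12 more of 72 bp. Their repeats covered 1437 bp, which was 47.5% of the CDS in Chr1.2651 and 48.8% in Chr1.3471. The repeats began at the third segment in each gene, and the 5 segments that followed them ended the gene. The CDS measured 3027 bp in Chr1.2651 and Chr2.2386, 2943 bp in Chr1.3471 and 2997 bp in Chr2.3154. Most introns between these repeats were short, and the longest was 139 bp in Chr1.2651 and 1486 bp in Chr1.3471.

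**Figure D3:**
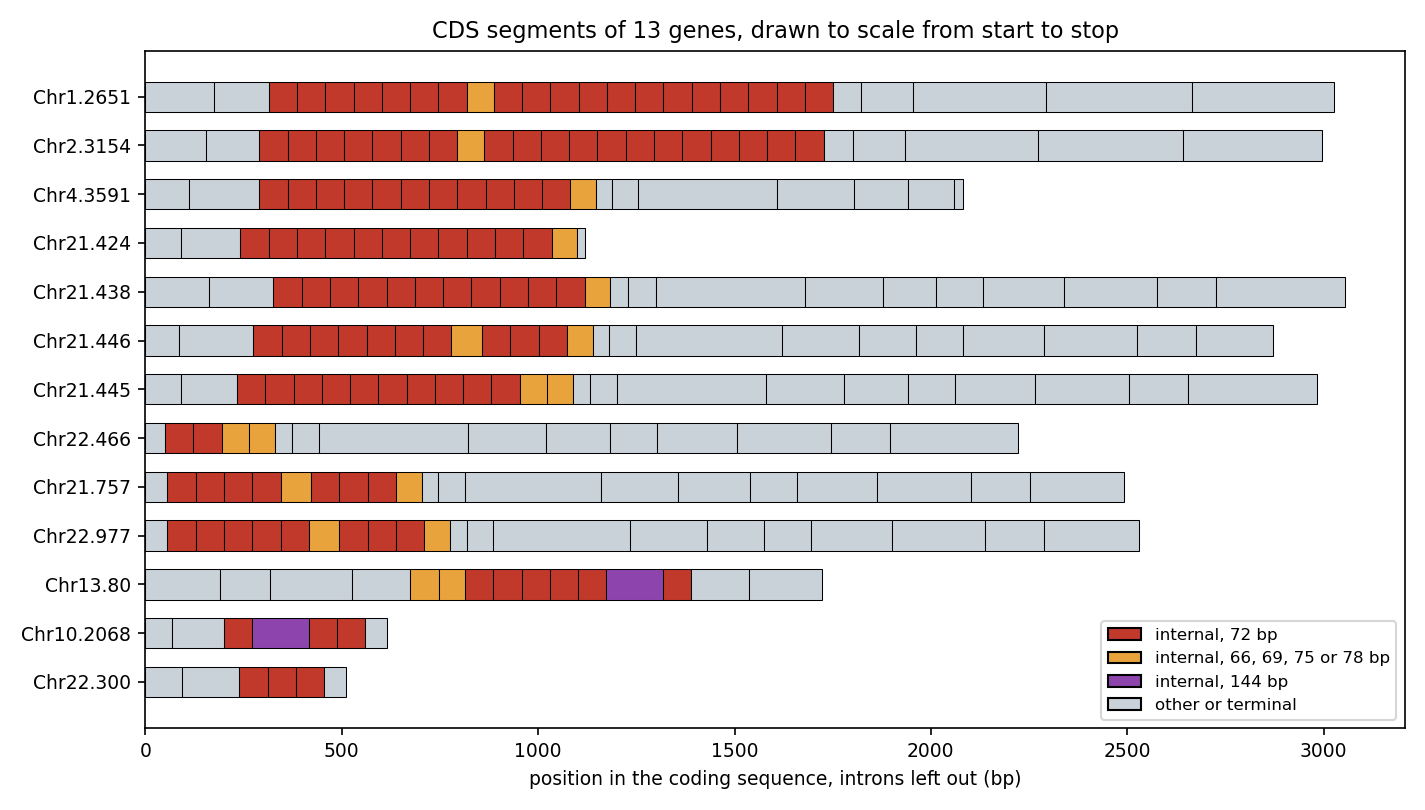
CDS segments of 13 genes in order and to scale, with introns left out; the x axis is the position in the coding sequence in bp and colours give the length class of a segment. Chr1.2651 and Chr2.3154 show 7 and 12 segments of 72 bp around 1 of 69 bp, Chr21.445 shows 10 where its copy Chr22.466 shows 2, and Chr21.757 and Chr22.977 show 7 and 8.

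Next in number were genes with 11 segments of 72 bp, all in a single run. These were Chr3.3655 (chromosome 3, 68539134 to 68543913), Chr4.3591 (chromosome 4, 64071994 to 64076971), Chr21.424 (chromosome 21, 8524156 to 8534303), Chr21.438 (chromosome 21, 9027404 to 9051485) and Scaffold3697.126, followed by genes with 10 such as Chr21.429 (chromosome 21, 8763800 to 8789071). Their models differed in what came after the run. The CDS of Chr21.438 measured 3054 bp in 24 segments, and that of Chr21.424 stopped shortly after the run, at 1119 bp in 15 segments. At the other end, the shortest CDS was 510 bp in Chr22.300 (chromosome 22, 4657685 to 4659380), with 6 segments and a run of 3. The longest was 7341 bp in Chr5.488 (chromosome 5, 9128943 to 9178466), whose 3 segments of 72 bp did not touch.

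Segments outside the repeats linked the genes into groups. Genes were joined when they shared 3 consecutive segment lengths outside a repeat class. This class held the multiples of 3 from 60 to 84 bp and the lengths 144 and 216 bp. Other lengths close to the unit, such as 68 bp, could take part. Joining gave 23 groups and left 43 genes alone. The largest group held 30 genes, with 11 on chromosome 21, 6 on chromosome 22, 2 on chromosome 4 and 11 on unplaced scaffolds. Segments of 119, 205, 238 and 151 bp in this order were found in 21 of them, with 4 to 11 segments of 72 bp and a CDS of 2205 to 3054 bp, and 14 of the 21 had exactly 24 CDS segments. In all 30 genes, every 72 bp segment lay between phase 2 introns. The second group had 8 genes on chromosomes 1, 2, 11 and 12, and the third was the set of 4 genes with 19 segments each. All other groups had 4 genes or fewer, and 17 of the 23 were pairs of genes.

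The lengths 119, 205, 238 and 151 bp also occurred in 7 genes below the limit. One of these was Chr22.466, with 2 segments of 72 bp. The other 6 had none, and each had a repeat gene on the same strand within 10 gene places. For 5 of the 6 the nearest one was the directly adjacent gene and lay upstream, for example Scaffold3697.126 with its 11 segments, 7076 bp ahead of Scaffold3697.127. Similarly, Chr21.331 with 6 segments lay 29734 bp ahead of Chr21.329, and Chr22.300 lay 9916 bp ahead of Chr22.299. These gaps are those between annotated gene ends. Whether such neighbours form 1 transcript was not tested.

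A second recurrent order was 72, 144, 72 and 72 bp, which was present in 14 repeat genes. An internal order with 3 segments of 72 bp meets the rule by itself, so it could not occur among the internal segments of other genes. In 12 of them a segment of 133 bp came first. Of these, 7 were small models with 7 CDS segments, a CDS of 615 to 645 bp and a single shared list of internal lengths. They lay on 5 chromosomes (Chr9.2518, Chr9.4499, Chr10.2068, Chr10.3957, Chr17.2987, Chr21.2327 and Chr22.2720). Chr9.2518 and Chr9.4499 had none of their 6 introns in common by length, whereas Chr9.2518 and Chr10.2068 shared 5 of 6 and Chr9.4499 and Chr10.3957 also 5 of 6.

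Repeat genes were unevenly spread over the chromosomes. Chromosome 21 carried 16 of them among 2584 genes (6.19 per 1000 genes), chromosomes 2 and 22 carried 10 each and chromosome 1 carried 9. Chromosomes 13, 16 and 17 carried 1 each, or 0.421, 0.399 and 0.373 per 1000 genes. Chromosome 21 was also high in the number of segments, with 137 and a median of 9.5 per gene, whereas the 10 genes on chromosomes 9 and 10 had exactly 3 each. Within pairs of chromosomes, the even-numbered chromosome differed from the odd-numbered one by -0.364 repeat genes on average (SD 2.50 over 11 pairs, adjusted p = 0.947 in the exact permutation test). The mean was 5 on the even-numbered and 5.36 on the odd-numbered chromosomes, more on the even-numbered one in 4 pairs and fewer in 4. Unplaced scaffolds carried 11.6% of the repeat genes, against 5.65% of all genes and 4.35% of genes with at least 5 CDS segments. All 15 lay on 6 scaffolds.

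**Figure D4:**
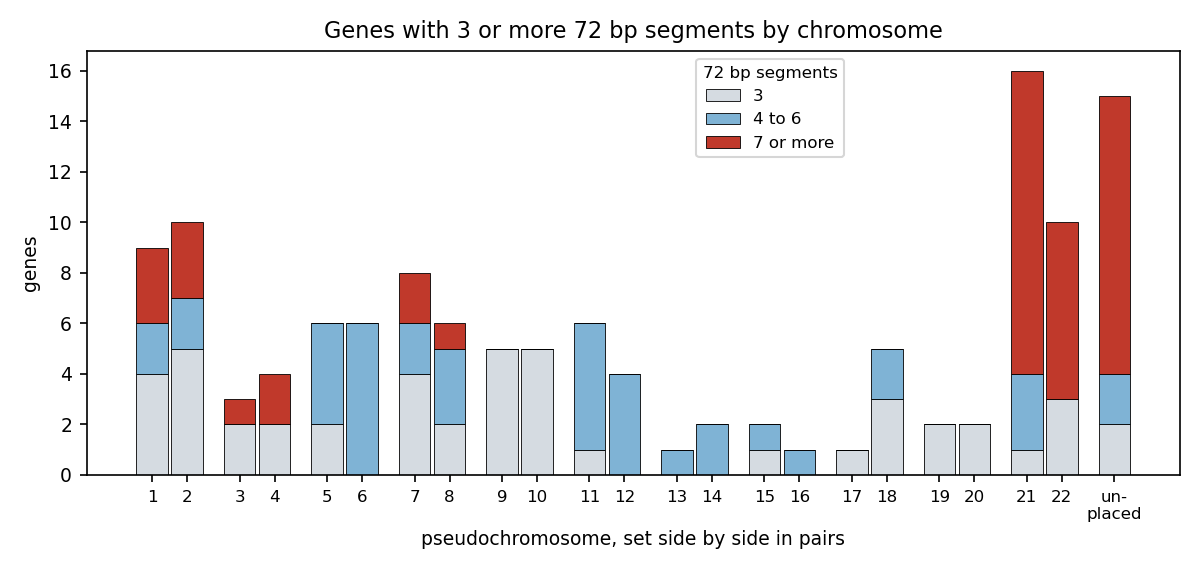
Number of repeat genes (y axis) on each of the 22 pseudochromosomes, drawn in pairs, and on unplaced scaffolds, with colours for the number of 72 bp segments in the gene. Chromosome 21 has 16 genes, unplaced scaffolds 15 and chromosomes 2 and 22 10 each; the genes on chromosomes 9, 10, 19 and 20 all have 3 segments.

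Many repeat genes lay close to one another. Of the 129, 59 (45.7%) were within 10 gene places of another repeat gene on either strand, in 21 clusters, and 26 had a repeat gene as direct neighbour. The largest cluster stood on chromosome 21 from 8524156 to 9258401, where 9 genes with 6 to 11 segments each lay within 0.734 Mb, 5 on the plus and 4 on the minus strand. The first 10 Mb of chromosome 21 held 12 repeat genes among 248 genes, and the first 10 Mb of chromosome 22 held 5 among 292. Clusters of 5 were found on chromosome 11 and on Scaffold3709, the latter from 1952912 to 2306810 with 4 to 10 segments per gene. Since the genes were chosen on the same property that defines the clusters, these counts were not tested, and no count for other genes stands beside them.

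On 1 strand, the largest cluster consisted of Chr21.424, Chr21.430, Chr21.438, Chr21.445 and Chr21.446. They had 11, 6, 11, 10 and 10 segments of 72 bp in this order. Chr21.430 (chromosome 21, 8789862 to 8819504) was the short one, with a CDS of 942 bp in 11 segments, and it contained the longest intron between neighbouring 72 bp segments, 15355 bp. Chr21.445 (chromosome 21, 9157546 to 9168916) and Chr21.446 (chromosome 21, 9171280 to 9193511) were adjacent. Chr21.446 had a run of 7 broken by a segment of 78 bp, where Chr21.445 had an unbroken run of 10. No pair of them had the same list of internal lengths.

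Near copies with an unchanged structure were not found among repeat genes on the same strand. None of the 114 placed repeat genes had a gene with an identical list of internal lengths within 10 places on its strand, against 1.20% of all placed genes with at least 5 CDS segments. A count of 0 of 114 allows a share of up to 2.63%, above that background, so a difference was not detectable. The exact permutation test gave an adjusted p of 0.00342 for -1.21 percentage points (lower in 11 of 11 pairs), but with 3 to 26 repeat genes per pair a share of 0 lies below any background, and this p does not bear on the difference. On opposite strands, Chr18.2754 and Chr18.2769 shared their list and 25 of 28 intron lengths, 6 gene places apart.

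The share of repeat genes with a copy on the neighbouring-numbered chromosome was near that of all placed genes with at least 5 CDS segments. An identical list of internal lengths was found there for 50 of the 114 placed repeat genes (43.9%), against a background of 47.2%. The mean difference over the pairs was -3.25 percentage points (SD 31.7, higher in 5 and lower in 6 of 11 pairs, adjusted p = 0.947 in the exact permutation test). The spread among pairs was wide, from 0% on chromosomes 15 and 16 to 100% on chromosomes 19 and 20, which carried few repeat genes. On chromosomes 1 and 2 the share was 73.7%, and on chromosomes 21 and 22 it was 23.1%.

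Allowing for changes in the list, 84 of the 114 had a reciprocal best partner on the paired chromosome, with at least 0.6 of the ordered segment lengths shared. With tied best partners kept as well, the count was 85 of 114 (74.6%), against 66.6% of all placed genes with at least 5 CDS segments. The mean difference over the pairs of chromosomes was 7.73 percentage points (adjusted p = 0.438, exact permutation test). The similarity counts the 72 bp segments that the choice required, so repeat genes match one another in part by the choice. This comparison with other genes therefore cannot show whether partners are more frequent among repeat genes. The 84 genes and their partners formed 44 pairs, of which 25 had identical lists. Partners were near their predicted place, with a median displacement of 5 gene places and at most 33, except for Chr17.2987 and Chr18.453, which were displaced by 1384 places. The similarity of these 2 genes was 0.667 with the 72 bp segments and 0 without them. In 14 pairs the genes had opposite orientations. Of the 30 genes without a partner, 11 were among the 26 on chromosomes 21 and 22 and 19 among the 88 on the other chromosomes.

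The number of 72 bp segments was equal in 39 of the 44 pairs and differed in 5. Partners were matched on lists that include these segments, so equal numbers were favoured, and identical lists have equal numbers by definition. Among the 42 pairs with a similarity of at least 0.5 over the segments of other lengths, 5 also differed. The widest gap was between Chr21.445 with 10 and Chr22.466 (chromosome 22, 7480418 to 7488182) with 2. Their last 14 segments were equal in length, and so were 9 of the 14 introns before them. The first segment of Chr22.466 measured 50 bp and was followed by an intron of the same length, 80 bp, as the one after the eighth 72 bp segment of Chr21.445. By these lengths, the model of Chr22.466 began at the place of the eighth 72 bp segment of its partner.

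In another pair, Chr7.4120 (chromosome 7, 78382029 to 78387363) had 3 segments of 72 bp and Chr8.3952 (chromosome 8, 73465942 to 73475194) had 1. Here the 72 bp segment, intron of 83 bp and 72 bp segment of Chr7.4120 added up to 227 bp, and Chr8.3952 had in this place a single segment of 231 bp. Chr21.757 (chromosome 21, 15050711 to 15064109) had runs of 4 and 3 around a segment of 78 bp, and Chr22.977 (chromosome 22, 16771427 to 16783228) had 5 and 3. The remaining pairs were Chr2.2831 with 3 against Chr1.3077 with 1, and Chr5.488 with 3 against Chr6.456 with 1, all of them long models with scattered 72 bp segments.

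Where partners had identical lists, most intron lengths were kept, inside and outside the repeats. Between neighbouring 72 bp segments, 69 of 90 introns (76.7%) had exactly the same length in both genes, and among the other introns between internal segments 174 of 235 (74.0%) did. Introns of a gene share their history, so the shares are given without a test. The share among other genes with identical lists is not given here, so whether these values are particular to repeat genes was not tested. Chr1.3471 and Chr2.3154, the identical partners with most segments, agreed in 22 of 26 introns, and Chr1.2651 and Chr2.2386 in 17 of 26.

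**Figure D5:**
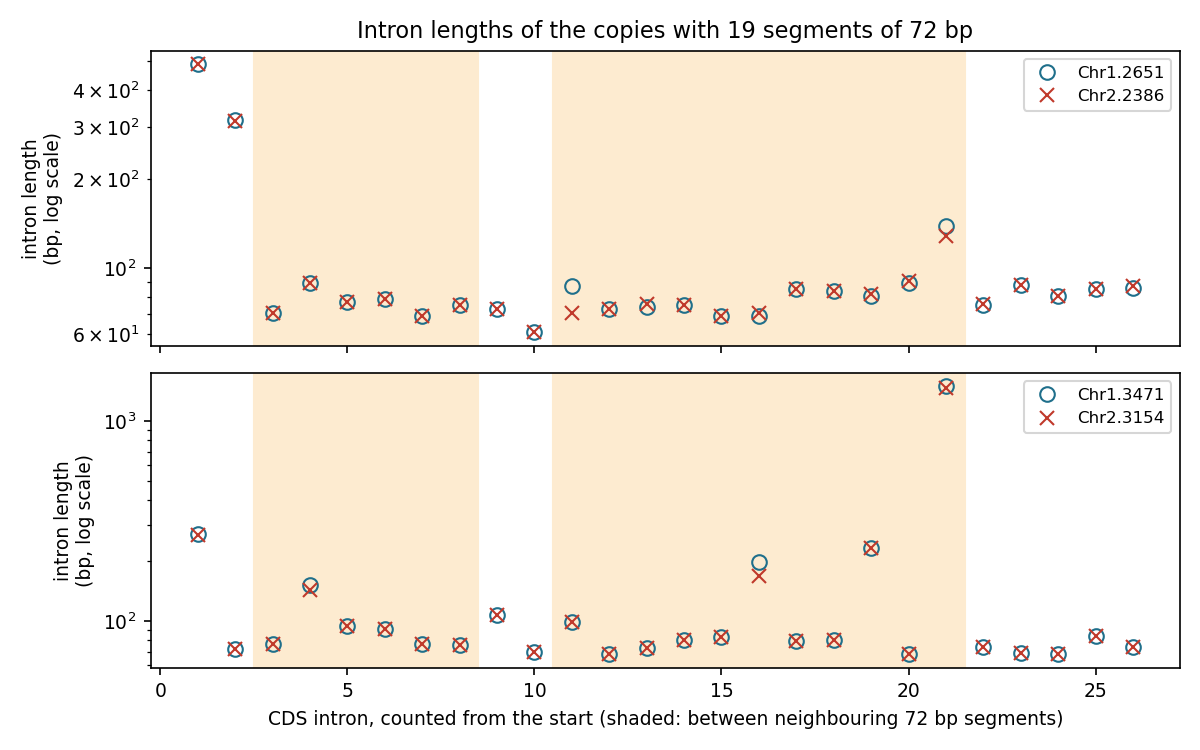
Length of each CDS intron (bp, log scale) along the partners Chr1.2651 and Chr2.2386 (upper plot) and Chr1.3471 and Chr2.3154 (lower plot), with introns between neighbouring 72 bp segments shaded. Circles and crosses coincide at 17 of 26 introns in the upper pair and at 22 of 26 in the lower pair, whose longest introns measure 1486 and 1459 bp.

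Some copies lay outside the paired chromosomes. Chr4.2270 had the list of Chr21.444, 10 segments of 72 bp and the same CDS length of 2910 bp, and 21 of their 23 introns were equal in length. Of the 15 unplaced repeat genes, 6 had the list of a placed gene. Scaffold3697.126 matched Chr21.424 with 11 segments and 11 of 14 introns equal, and Scaffold3709.137 matched Chr21.445 with 10 segments and 10 of 23 introns equal. Scaffold3709.138 matched both Chr21.444 and Chr4.2270, with 14 of 23 introns equal in each case. The other 9 had a most similar placed repeat gene with a similarity of 0.625 to 0.955, and 11 of the 15 unplaced genes belonged to the group of 30.

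Introns of the repeat genes were mostly short. The 506 introns between neighbouring 72 bp segments had a median of 85 bp (quartiles 74 and 192 bp), and the 1663 other CDS introns of the same genes had a median of 86 bp. By pairs of chromosomes, the medians differed by 14.4 bp (SD 75.4 over 11 pairs, longer inside runs in 4 and shorter in 7, adjusted p = 0.947 in the exact permutation test). Chromosomes 13 and 14 alone made this difference positive, with 375 bp inside runs against 137 bp elsewhere. Without them it was -8 bp. The median intron per gene differed by -2.48 bp from that of other genes with at least 5 CDS segments (SD 29.98, shorter in 8 of 11 pairs, adjusted p = 0.947 in the same exact permutation test). Without chromosomes 13 and 14 the difference was -11.03 bp (adjusted p = 0.0182, exact permutation test). Any other pair left out gave an adjusted p of 0.947 to 0.992 in this exact permutation test. The sign was reversed against genes with at least 10 CDS segments (8.82 bp), with at least 4 segments of 72 bp (4.03 bp) and with means (85.1 bp). None of these 3 passed the test.

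The long tail was more visible than the median. Of the introns between neighbouring 72 bp segments, 54 (10.7%) exceeded 1 kb, against 8.42% of the other introns in the same genes and 5.65% of the introns in other genes with at least 5 CDS segments. These long introns inside runs were found in 35 of the 119 genes with neighbouring segments. Most of them lay on chromosomes 21 and 22 and on unplaced scaffolds. Few of the 259 introns inside runs on the other chromosomes exceeded 1 kb, so the excess did not extend to them. Repeat genes spanned a median of 7952 bp, against 3517 bp in the other genes. The longest span, 84589 bp, belonged to Chr8.3957 (chromosome 8, 73511116 to 73595704), in which a single intron outside the run took 81180 bp. On chromosomes 21 and 22 the median span was 12399 bp, on unplaced scaffolds 12205 bp and on the other chromosomes 5801.5 bp.

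Untranslated regions were annotated in 91 of the 114 placed repeat genes (79.8%), against 67.6% of all placed genes with at least 5 CDS segments. Averaged over the pairs of chromosomes the share was 16.9 percentage points higher than in the other genes (SD 17.1, higher in 8 and lower in 3 of 11 pairs, adjusted p = 0.0296 in the exact permutation test). The difference passed the test when chromosomes 5 and 6, 7 and 8 or 11 and 12 were left out, and any other pair left out gave an adjusted p of 0.0501 to 0.0592 (exact permutation test). Against other genes with at least 10 CDS segments the difference was 3.82 percentage points (adjusted p = 0.947 in the same exact permutation test). It was thus not separated from the greater number of segments in repeat genes. All of these genes with a UTR were models without a source name, which made up 85.1% of the placed repeat genes and 69.6% of the other genes, and among these models 93.8% and 97.0% had a UTR.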

How the data were processed

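The authors predicted genes with Augustus, Genscan, GeneWise and PASA and joined the models with Evidence Modeler. The versions of these 5 tools are not stated here. The deposited annotation holds start and end positions in bp and the CDS phase, which are the only values used, and no sequencing depth per library. Segment lengths, introns and intron phases were computed from the positions. The phase column equalled the summed lengths in 128 of the 129 repeat genes and in 56765 of 57303 genes.

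Repeat genes were those with at least 3 internal CDS segments of 72 bp. Members, lists and tests were chosen with earlier results of these data known. Similarity was 2 times the longest common ordered list divided by the summed list lengths. Partners were reciprocal best matches of at least 0.6 on the neighbouring-numbered chromosome, with ties broken by the place predicted from the 5 nearest of 3859 uniquely matched gene pairs. Displacement is the distance from that place. Linking excluded lengths from 60 to 84 bp in steps of 3. Tests were exact sign-flip permutation tests over 11 chromosome pairs with Benjamini-Hochberg adjustment over 7 tests and a threshold of 0.05. The scripts were tested on simulated gene models. Genes were named by rank (most segments, longest run, CDS, span or run intron, largest cluster, partners that differ most, unplaced genes with most), and others named were chosen after their values were seen. Python 3.11.15, NumPy 2.4.6, Numba 0.67.0 and Matplotlib 3.10.9 were used.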

Additional observations from a re-analysis of the deposited data

How the results depend on the processing

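The number of repeat genes rested on the rule. With at least 2 segments it was 242, with at least 4 it was 82, with lengths of 69 to 75 bp it was 584, and the most frequent other exact length gave 16. Runs of 3 or more, terminal segments and clean models kept it within 1.5 times. Leaving out 1 chromosome pair at a time gave a phase 2 difference of 72.1 to 79.7 percentage points, a UTR difference of 15.2 to 20.1 (adjusted p up to 0.0592, exact permutation test, over 0.05 in 8 of 11 cases), a near-copy difference of -1.26 to -1.16, an identical-list difference of -9.15 to 1.36, an intron length difference of -11.03 to -0.25 bp, a difference inside runs of -8 to 18.5 bp and an even minus odd difference of -0.8 to 0.2 genes. With at least 4 segments the UTR difference was 12.6 (adjusted p = 0.201, exact permutation test) and the intron length difference 4.03 bp. Against genes with at least 10 CDS segments these were 3.82 and 8.82 bp. Means in place of medians gave 85.1 bp for intron length and -229.2 bp inside runs. The identical-list difference was -13.3 with at least 4 segments and -8.78 against genes with at least 10 CDS segments. Reciprocal similarity of at least 0.6 in place of identical lists gave 7.73 percentage points (adjusted p = 0.438, exact permutation test). That similarity counts the 72 bp segments that the choice required. The differences that changed sign had not passed the test over all 11 pairs; that in intron length passed it without chromosomes 13 and 14 (-11.03 bp, adjusted p = 0.0182, exact permutation test). Partners with a similarity of at least 0.8 differed in 3 pairs in place of 5. An alternative chosen after seeing the data, without the linked group of 30 genes, changed no direction and no call. The cause of these changes was not tested. No paired analysis was possible because the samples have 1 library per tissue and no values per library. Gene models from 1 annotation limit all counts.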
